A study of Rattus norvegicus with 16 samples.

Results

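The genes described here carry out fatty acid uptake, binding and activation: Lpl, Cd36, Fabp4, Fabp5, Fabp3, Acsl1, Acsl3, Acsl4 and Acsl5. They were chosen by symbol in the annotation of the array, which gave 11 probe sets for 9 genes out of 15923 probe sets and 10959 named genes in all. Of these, 10 named 1 gene, and 1 was annotated to both Cd36 and Cd36l1 and is called the shared probe set below. RNA came from isolated rat pancreatic islets, the clusters of endocrine cells that secrete insulin, glucagon and other hormones. Islets carried either a null adenovirus or an adenovirus with PPARγ, each given at 50 viral particles per cell over 32 h. A further 16 h followed either in vehicle, 0.004% DMSO, or in GW347845 at 200 nM. GW347845, called the compound here, is an agonist of PPARγ, so the groups separate added receptor, added ligand and both. Every group thus carried an adenovirus, and no uninfected islets were among the samples. The labels give neither the strain, sex or age of the rats, nor the promoter or species of the viral PPARγ, nor the DMSO content of the compound groups. Whether the replicates came from separate islet preparations is not stated, so p-values measure only the spread between these arrays, which may be technical.

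A long-chain fatty acid reaches metabolism through a chain of proteins. Lipoprotein lipase frees it from circulating triglyceride, CD36 helps it across the plasma membrane, fatty acid binding proteins carry it through the cytosol, and long-chain acyl-CoA synthetases couple it to coenzyme A. In adipocytes Lpl, Cd36, Fabp4 and Acsl1 are well-known targets of PPARγ, a nuclear receptor that binds DNA with the retinoid X receptor. Islets take up fatty acids as fuel and as modulators of insulin secretion, and Fabp4 is mainly known from adipocytes, macrophages and capillary endothelium.

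The table held 16 arrays. Replicate 2 of null virus with vehicle and replicate 2 of null virus with compound were identical in every value and were left out, which leaves 3, 3, 4 and 4 arrays. Pparg read 25.6 to 51.4 on the null virus arrays and 4593.4 to 6199.1 on the PPARγ virus arrays. Summed islet hormones other than insulin set PPARγ virus replicates 2 and 4 apart, with 498.3 to 2448.1 against 8424.2 to 9837.3 in replicates 1 and 3 and 4640.4 to 9223.6 under the null virus. Results were therefore also computed without those 4 arrays, a choice made after the data were seen. The 3 prime to 5 prime signal ratio of beta-actin, a measure of RNA integrity, was 7.58 to 14.9 and was higher with compound in 7 of 7 same-numbered pairs, by a mean of 0.38 on the log2 scale under the null virus and 0.24 under the PPARγ virus. For Gapdh that ratio was 8.36 to 18.9, and 4 of 7 pairs had the higher value in compound, with a mean difference of 0.24 under the null virus and -0.07 under the PPARγ virus. The part of RNA integrity in the compound results was not tested. Beta cell markers were abundant on every array, with 6 of 11 listed on the array and sums of 12708.4 to 20089.1. Of 10 adipocyte markers 7 were on the array, and their sums lay between 143.0 and 203.9. Of these 7, 5 (Lep, Cfd, Plin1, Cidea and Lipe) exceeded 39.3, the floor used to select probe sets for testing, on 0 of 14 arrays, whereas Slc2a4 did on 12 and Adrb3 on 4. In RNA of whole islets, fewer cells of a type and less RNA per cell cannot be told apart.

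The combination of receptor and ligand raised Fabp4, Cd36, Lpl and Acsl1, and the other 5 genes did not pass the test in any comparison. Against null virus with vehicle, 6 of 11 member probe sets rose and 0 fell, where 0.605% of all 10078 tested probe sets rose and 0.0595% fell. With the receptor present, the compound raised 4 of 11 member probe sets, where 0.0595% of all tested probe sets rose and 0 fell. On 4 of 11 member probe sets every compound array was above every vehicle array under that virus, as on 0.645% of all, and on 6 of 11 every array with both agents was above every array with neither, as on 4.06% of all. The virus without compound and the compound without the PPARγ virus each gave calls for 0 of 11. Over all 10078 tested probe sets these comparisons gave 4 calls (0.0397%) and 0 calls, so 0 of 11 does not set the members apart. Of the 11, the Cd36 probe set entered the test only through its values with both virus and compound, so neither its calls nor its separations are support. It was among the 4 and the 6 with full separation. Without it 5 of 10 rose with both agents against neither and 3 of 10 with compound under the PPARγ virus. All tests are limma's moderated test with Benjamini-Hochberg adjustment over the 10078 probe sets, and changes are on the scale of log2(intensity + 4.6), which understates the change of dim genes.

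**Figure D1:**
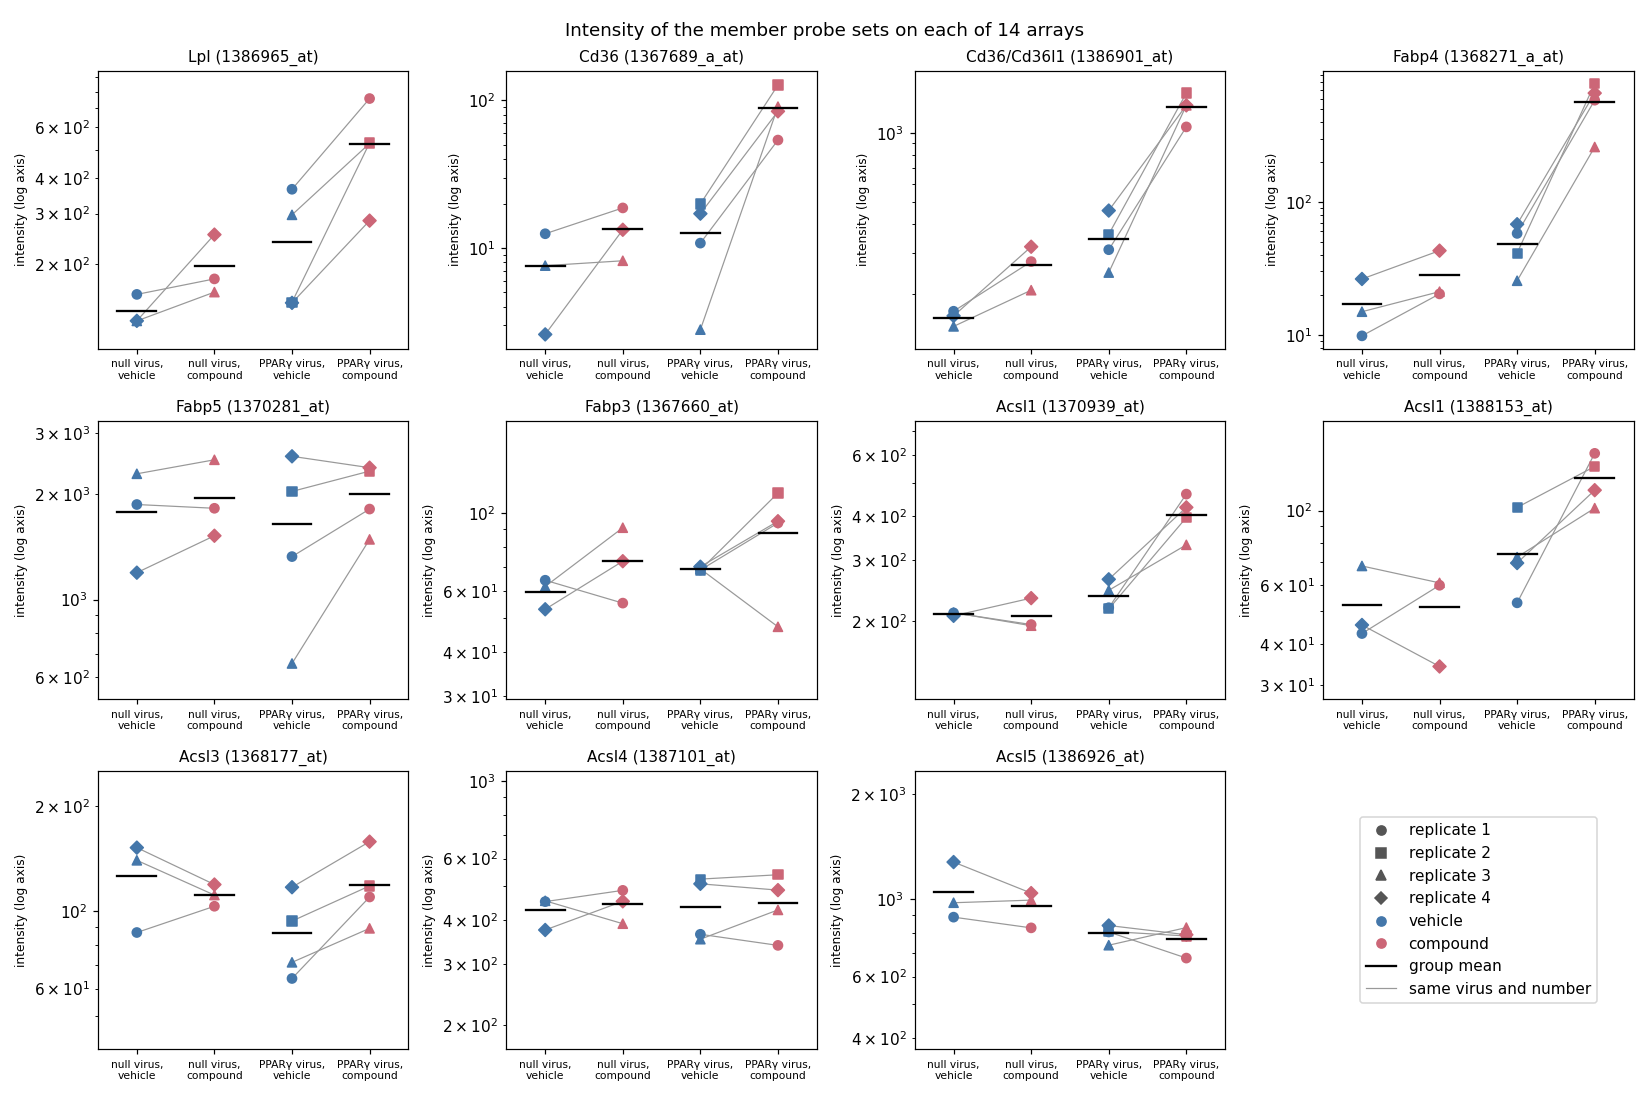
Intensity (log axis) of the 11 member probe sets on each of 14 arrays in the 4 groups, with grey lines joining vehicle and compound arrays of the same virus and replicate number and black bars for group means. Fabp4 rises from a mean of 48.2 to 572 between the PPARγ virus groups, whereas Acsl4 stays between 437 and 448.

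Lpl encodes the secreted enzyme that hydrolyses lipoprotein triglyceride. Its intensity was 156.8, 126.7 and 126.8 with null virus and vehicle, and 177.6, 159.7 and 253.5 with null virus and compound. With the PPARγ virus it was 364.9, 147.2, 297.1 and 146.5 in vehicle, and 756.3, 529.6, 527.5 and 283.6 with compound. The group with both agents lay above both null virus groups without overlap, while the PPARγ vehicle arrays fell into a high pair, replicates 1 and 3, and a low pair, replicates 2 and 4, that reached down among the null virus arrays. The high pair was also the pair with abundant non-insulin hormones. That hormone difference's part in Lpl was not tested.

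Lpl was 3.55-fold higher with both agents than with neither (log2 change 1.83 ± 0.34 SE, adjusted p = 0.0177). This call was lost without null vehicle replicate 1, 3 or 4 (adjusted p = 0.0633, 0.0913 and 0.107) and without PPARγ compound replicate 1 or 3 (0.0599 and 0.0529). Under the PPARγ virus the compound gave a 2.22-fold difference (1.15 ± 0.31 SE) that did not pass without pairing (adjusted p = 0.793). With the replicate number as a block within each virus the same difference passed (adjusted p = 0.00995), and it was positive in 4 of 4 pairs, between 1.76-fold and 3.52-fold. Under the null virus the 3 compound arrays all exceeded the 3 vehicle arrays, by 0.49 ± 0.36 SE, as did 2.08% of all tested probe sets, and the difference did not pass. The virus in compound gave 2.53-fold (1.34 ± 0.34 SE, adjusted p = 0.111). That value passed without PPARγ compound replicate 4 (1.60, adjusted p = 0.0398) and without the 4 arrays low in hormones (1.69, adjusted p = 0.00401). It also passed where the array with conflicting labels was counted as null virus with compound (1.65, adjusted p = 0.0400).

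CD36 is a membrane glycoprotein that binds long-chain fatty acids and oxidised lipoproteins. On the probe set of Cd36 alone, intensities were 12.5, 7.6 and 2.6 with null virus and vehicle, 18.7, 8.2 and 13.3 with null virus and compound, and 10.8, 19.9, 2.8 and 17.1 with PPARγ virus and vehicle. With both agents they were 53.9, 127.1, 90.8 and 84.4. Each of those 4 arrays was above each of the other 10, and the other 10 all lay below the test floor of 39.3.

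Because only the arrays with both agents admitted Cd36 to the test, its estimates are descriptions, and the low side of each is near the dim end of the scale. With values below 39.3 set to 39.3, Cd36 was at least 2.17-fold higher with both agents than in each other group. On the log2(intensity + 4.6) scale, the compound under the PPARγ virus gave 2.52 ± 0.39 SE (95% interval 1.68 to 3.36, adjusted p = 0.0242), the virus in compound 2.36 ± 0.43 SE (0.0150) and both agents against neither 2.97 ± 0.43 SE (0.00284). In a fit of all probe sets without the filter, which no group's values decide, the adjusted p were 0.0252, 0.0171 and 0.00389. The compound call did not survive a pseudocount of 1 (adjusted p = 0.122), a fit of only the groups compared (0.114), or the removal of PPARγ vehicle replicate 1 (0.0766) or 3 (0.0622) or PPARγ compound replicate 2 (0.140), 3 (0.101) or 4 (0.103). The virus call in compound was lost with a pseudocount of 1 (0.0589) and without null compound replicate 3 (0.1002) or 4 (0.0732) or PPARγ compound replicate 3 (0.0528). Without the 4 arrays low in hormones the compound and virus changes were 2.81 (adjusted p = 0.380) and 2.10 (adjusted p = 0.0859).

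The shared Cd36 and Cd36l1 probe set was brighter, and its values cannot be divided between these genes. It read 167.7, 144.1 and 160.1 with null virus and vehicle, 275.6, 207.0 and 319.8 with null virus and compound, and 310.4, 362.1, 246.9 and 459.2 with PPARγ virus and vehicle. With both agents it read 1060.5, 1487.7, 1315.8 and 1315.8. Null virus with vehicle was lowest and the double treatment highest, each without overlap with any other group, and the groups with 1 agent overlapped each other. The compound raised it 3.79-fold under the PPARγ virus (1.92 ± 0.18 SE, 95% interval 1.54 to 2.30, adjusted p = 2.49e-04). The virus raised it 4.82-fold in compound (2.27 ± 0.19 SE, adjusted p = 2.09e-05), and both agents against neither gave 7.98-fold (3.00 ± 0.19 SE, adjusted p = 8.95e-07).

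Either agent alone also left higher values on the shared probe set. Every array was above every null vehicle array, as on 2.45% of all tested probe sets with the virus and 2.08% with the compound. The virus in vehicle gave 2.11-fold (1.08 ± 0.19 SE, 95% interval 0.67 to 1.49), which missed the threshold (adjusted p = 0.0815) but passed without PPARγ vehicle replicate 3 (1.22, adjusted p = 0.0210). The compound under the null virus gave 0.73 ± 0.21 SE, with an adjusted p of 1.00, or 0.767 with the replicate block. It was higher in 3 of 3 pairs, as were 11.0% of all tested probe sets. In that comparison limma called 0 of 10078 probe sets, 95 (0.943%) had an unadjusted p under 0.05, and the shared probe set was the single member among them.

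The 250 bases ahead of the annotated start of Cd36 are shown because Cd36 is among the genes that rose and PPARγ is known to bind a direct repeat, AGGTCA followed by 1 base of any kind and AGGTCA again. The sequence is RefSeq's for assembly GRCr8, chr4:18246332-18246581, plus strand. Capitals mark a stretch as close to that repeat as any in the window on either strand. It reads in the reverse direction and differs in 4 of 12 letters, and another stretch of the window is equally close.
Cd36: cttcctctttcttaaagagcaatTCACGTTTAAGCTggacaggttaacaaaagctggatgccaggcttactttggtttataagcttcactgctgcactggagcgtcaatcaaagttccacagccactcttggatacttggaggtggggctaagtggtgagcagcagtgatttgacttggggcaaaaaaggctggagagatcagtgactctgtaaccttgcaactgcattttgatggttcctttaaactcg
Of 33469 rat promoter windows of the same length, 74.5% held a stretch at least as close, 0.0508% held the full repeat and 14.1% held at least 1 AGGTCA on either strand. The table covered 6 of the 9 genes, namely Cd36, Fabp3, Acsl1, Acsl3, Acsl4 and Acsl5, and in these 6 windows neither the full repeat nor the single AGGTCA was found. A match is a description of letters, and its absence says only that these letters are not in this window.

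Fabp4 encodes the adipocyte fatty acid binding protein and had the highest estimated change among the members in each of the 3 comparisons that involve both agents, on the log2(intensity + 4.6) scale. Its intensity was 9.8, 14.9 and 26.3 with null virus and vehicle, 20.3, 21.1 and 43.0 with null virus and compound, and 58.0, 41.2, 25.5 and 68.0 with PPARγ virus and vehicle. With both agents it was 585.4, 780.7, 259.8 and 662.2. The lowest array with both agents was above every other array of the study, and the other 3 groups overlapped in part. Values above the test floor of 39.3 occurred on 0, 1, 3 and 4 arrays of the groups in this order, so the low groups are near the dim end of the scale.

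The compound raised Fabp4 under the PPARγ virus, by an estimated 10.7-fold (3.42 ± 0.36 SE, 95% interval 2.64 to 4.19, adjusted p = 7.37e-04), between 8.78-fold and 17.1-fold in the 4 pairs. It also rose with the virus in compound (4.10 ± 0.39 SE, adjusted p = 6.49e-05) and with both agents against neither (4.70 ± 0.39 SE, adjusted p = 1.29e-05). The fold of the last comparison depended on the pseudocount, 16.9-fold with 16, 26.0-fold with 4.6 and 31.7-fold with 1. With values below 39.3 set to 39.3, Fabp4 was at least 10.5-fold, 13.1-fold and 13.5-fold higher in these 3 comparisons. Leaving out any 1 array kept these 3 calls. Without the 4 arrays low in hormones, which leaves 2 arrays in each PPARγ group, the compound change was 3.19 and did not pass (adjusted p = 0.140), while the other calls held (adjusted p = 0.00371 and 9.25e-04). The virus in vehicle gave 1.28 ± 0.39 SE (adjusted p = 0.657). The compound under the null virus gave 0.60 ± 0.42 SE and was higher in 3 of 3 pairs, as were 11.0% of all tested probe sets; it did not pass.

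Fabp5 and Fabp3, the epidermal and heart type relatives of Fabp4, did not pass in any of the comparisons. Fabp5 read 1870.8, 2290.7 and 1193.5 with null virus and vehicle, 1824.8, 2512.1 and 1522.6 with null virus and compound, 1327.1, 2039.3, 655.8 and 2570.6 with PPARγ virus and vehicle, and 1815.4, 2331.3, 1486.3 and 2384.8 with both. The groups overlapped throughout. Replicates 2 and 4 exceeded replicates 1 and 3 in both PPARγ virus groups, the reverse of the order of the non-insulin hormones, and this relation was not tested. Compound under the PPARγ virus changed Fabp5 by 0.43 on the log2 scale, with 3 of 4 pairs up. Fabp3 had group means of 59.7 ± 5.86 (SD, n = 3), 73.0 ± 17.8 (SD, n = 3), 69.3 ± 0.707 (SD, n = 4) and 87.6 ± 28.5 (SD, n = 4) in the same order of groups. Its change with both agents against neither was 0.46 (adjusted p = 0.629), and PPARγ compound replicate 3, at 47.3, was below all other arrays. The compound response of Fabp4 under the PPARγ virus exceeded that of Fabp5 by 2.99 log2 units and that of Fabp3 by 3.16, in 4 of 4 pairs each. Exchanging labels within the pairs gave an exact two-sided permutation p of 0.125 for both, the smallest that 4 pairs can give, so these differences could not pass at 0.05.

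**Figure D2:**
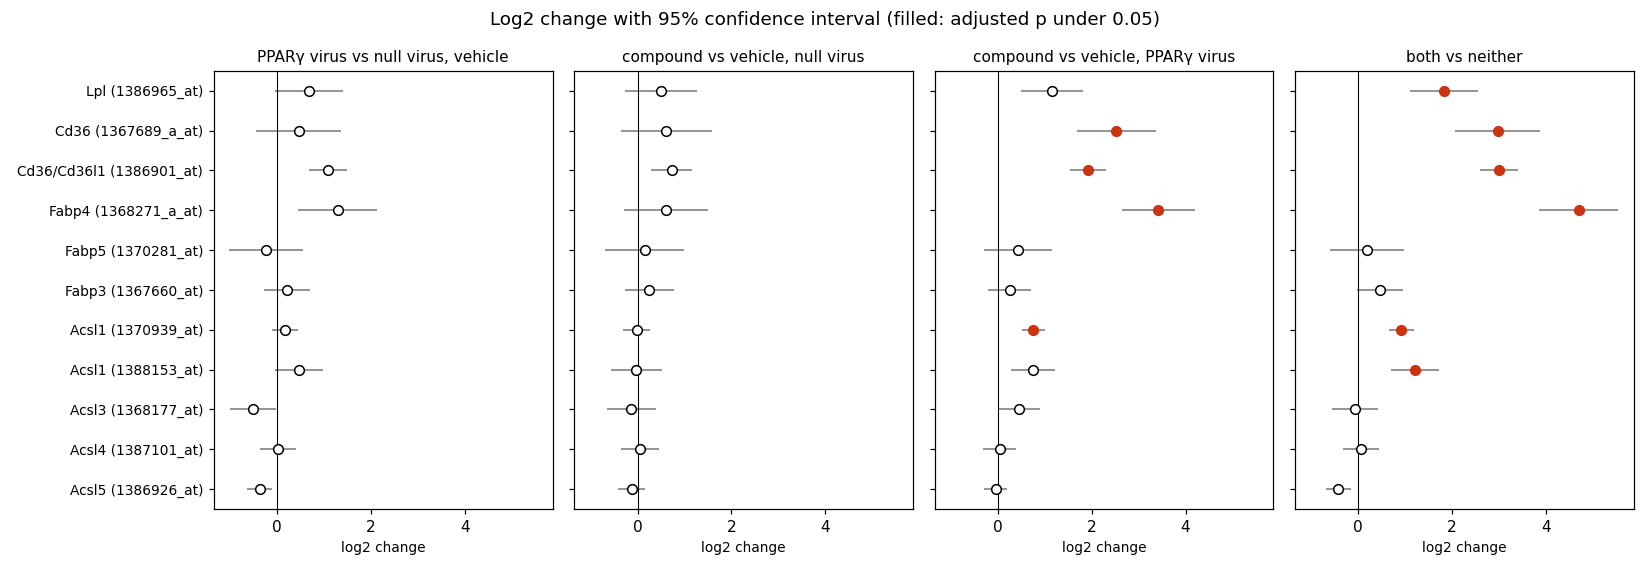
Log2 change with 95% confidence interval of each member probe set in 4 comparisons, with filled points for an adjusted p under 0.05. Compound under the PPARγ virus gives 3.42 for Fabp4, 2.52 for Cd36 and 0.76 for the brighter Acsl1 probe set, while every interval for Fabp5, Fabp3 and Acsl4 includes 0.

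Acsl1, the acyl-CoA synthetase that predominates in adipose tissue, heart and liver, rose less than Fabp4 or Cd36 but with little scatter. On its brighter probe set, intensities were 211.7, 212.0 and 207.6 with null virus and vehicle, 196.0, 194.5 and 233.3 with null virus and compound, 219.0, 217.3, 245.6 and 264.1 with PPARγ virus and vehicle, and 463.2, 396.9, 331.5 and 424.4 with both. The double treatment lay above all other arrays. The PPARγ vehicle arrays all exceeded the null vehicle arrays, by a mean of 0.16 on the log2 scale that did not pass, and 2.45% of all tested probe sets showed such a separation.

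The compound raised Acsl1 1.69-fold under the PPARγ virus (0.76 ± 0.12 SE, 95% interval 0.51 to 1.00, adjusted p = 0.0242), with 1.34-fold to 2.09-fold in the pairs. Under the null virus the change was -0.02. The virus in compound gave 1.92-fold (0.94 ± 0.13 SE, adjusted p = 0.00211) and both agents against neither 1.89-fold (0.92 ± 0.13 SE, adjusted p = 0.00219). The compound call was lost in a fit of only the groups compared (adjusted p = 0.207), without PPARγ vehicle replicate 1 (0.0766), 2 (0.119) or 3 (0.0622), without PPARγ compound replicate 1 (0.0958), 2 (0.0935) or 4 (0.103), and without the 4 arrays low in hormones (0.75, adjusted p = 0.521).

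A dimmer probe set of Acsl1 had group means of 52.2 ± 13.97 (SD, n = 3), 51.6 ± 15.1 (SD, n = 3), 74.4 ± 20.5 (SD, n = 4) and 125 ± 20.8 (SD, n = 4), in the order null vehicle, null compound, PPARγ vehicle and PPARγ compound. It moved in the same direction, 2.35-fold for the virus in compound (1.23 ± 0.24 SE, adjusted p = 0.0256) and 2.30-fold for both agents (1.20 ± 0.24 SE, adjusted p = 0.0297). Compound under the PPARγ virus changed it by 0.74 ± 0.22 SE, which did not pass (adjusted p = 1.00). Its virus call in compound was lost without null compound replicate 3 (0.0561) or 4 (0.157) or PPARγ compound replicate 1 (0.0885), 2 (0.0598) or 4 (0.0564). Its combined call was lost without null vehicle replicate 1 (0.174) or 4 (0.158) or PPARγ compound replicate 1 (0.106), 2 (0.0689) or 4 (0.0677). Without the 4 arrays low in hormones, these changes were 1.22 (adjusted p = 0.0813) and 1.19 (adjusted p = 0.0999).

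The same window ahead of Acsl1, the synthetase that rose, is given from RefSeq for assembly GRCr8, chr16:52532393-52532642, minus strand. Capitals again mark a stretch as close to the spaced repeat as any in the window, and another stretch is equally close. The marked one reads in the reverse direction and differs in 5 of 12 letters, a distance that 99.6% of windows reach.
Acsl1: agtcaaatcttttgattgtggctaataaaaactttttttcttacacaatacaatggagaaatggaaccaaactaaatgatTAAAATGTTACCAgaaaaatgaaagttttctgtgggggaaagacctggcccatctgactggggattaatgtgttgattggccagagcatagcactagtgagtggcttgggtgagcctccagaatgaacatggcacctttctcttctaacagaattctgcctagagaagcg
As for Cd36, the full repeat and the single AGGTCA were not found in this window.

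The other synthetases did not pass in any comparison. Acsl3, which resides on the endoplasmic reticulum and lipid droplets, read 86.8, 139.7 and 151.9 with null virus and vehicle, 103.2, 111.1 and 119.1 with null virus and compound, 64.1, 93.6, 71.3 and 117.0 with PPARγ virus and vehicle, and 109.7, 118.0, 89.2 and 158.0 with both. All 4 groups overlapped, and each PPARγ virus pair was higher with compound (0.44 ± 0.21 SE; adjusted p = 0.247 with the replicate block). In vehicle the virus changed it by -0.52 ± 0.23 SE, which did not pass. Acsl4, which prefers arachidonate, had group means between 427 and 448. Its compound change under the PPARγ virus was 0.04, with a 95% interval from -0.31 to 0.39. Acsl5, a synthetase of mitochondria and endoplasmic reticulum, read 887.5, 976.0 and 1276.2 with null virus and vehicle, 827.0, 992.9 and 1040.0 with null virus and compound, 804.9, 807.9, 737.6 and 839.9 with PPARγ virus and vehicle, and 677.6, 784.0, 828.4 and 790.4 with both. Each array of either PPARγ group was below each null vehicle array, a separation seen for 2.17% of all tested probe sets in vehicle and 4.89% with both agents. The differences, -0.37 ± 0.13 SE for the virus in vehicle (adjusted p = 0.774) and -0.43 ± 0.13 SE for both agents (adjusted p = 0.224), did not pass.

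Under the PPARγ virus, the compound response of Acsl1 exceeded that of Acsl4 by 0.72 log2 units and that of Acsl5 by 0.81, in 4 of 4 pairs each. Its excess over Acsl3 was 0.31, also in 4 of 4 pairs. In all 5 such comparisons, those of Fabp4 included, the exact paired permutation p was the smallest possible, 0.125, also after adjustment over the 5.

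**Figure D3:**
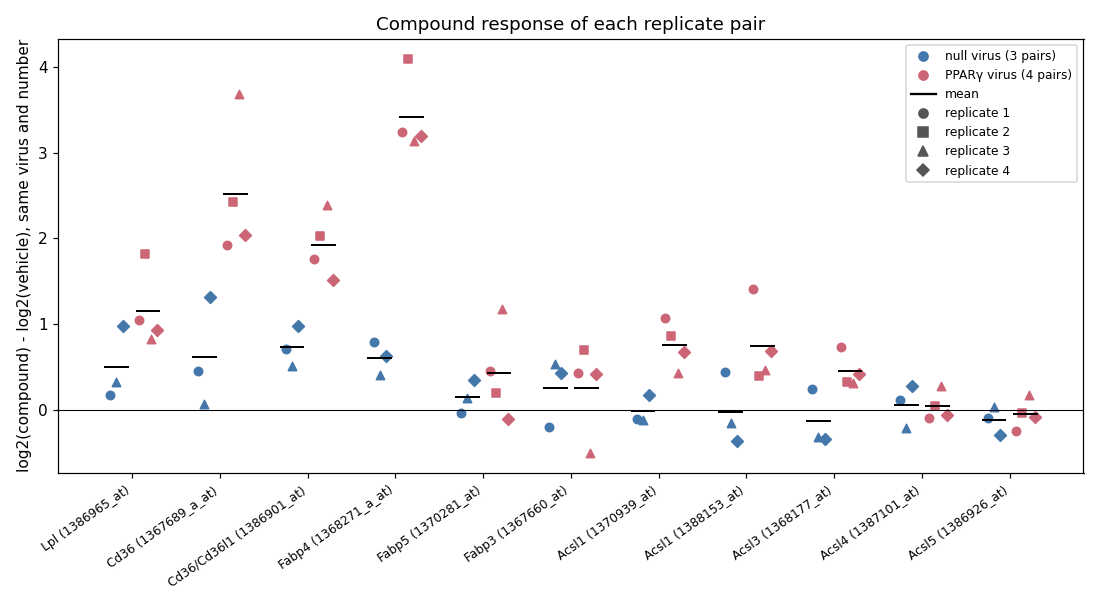
Difference of log2 values between compound and vehicle arrays of the same virus and replicate number for each member probe set, with 3 pairs under the null virus and 4 under the PPARγ virus and a bar for the mean. The 4 Fabp4 pairs under the PPARγ virus lie between 3.13 and 4.10 and the 3 under the null virus between 0.40 and 0.79.

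Pairs of the same virus and number showed how regular the compound response was. Under the PPARγ virus 7 of 11 member probe sets were higher with compound in every pair, against 7.76% of all tested probe sets: Lpl, both Cd36 probe sets, Fabp4, both Acsl1 probe sets and Acsl3. The place of the Cd36 probe set among the 7 is no support, because only its values with both agents admitted it to the test. Under the null virus 4 of 11 were higher in every pair, against 11.0% of all: Lpl, both Cd36 probe sets and Fabp4. All null virus arrays of the Cd36 probe set were below the test floor, at 2.6 to 12.5 in vehicle and 8.2 to 18.7 with compound. Its place among these 4 is thus no support either. Fabp4 exceeded that floor on 0 null vehicle arrays and 1 null compound array. Its pair differences under the null virus therefore lie near the dim end of the scale. With the replicate number as a block within each virus, 5 of 11 rose with compound under the PPARγ virus, Lpl being added, or 4 of 10 without the Cd36 probe set, where 0.357% of all tested probe sets rose and 0.0397% fell.

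The interaction asks whether the compound effect differed between the viruses. Without pairing, limma called 0 of 10078 probe sets, 143 of which (1.42%) had an unadjusted p under 0.05, and 5 of these were member probe sets. The Cd36 probe set is among the 5 and is no support, as it was tested only through its values with both agents. The estimate for Fabp4 was 2.81 ± 0.55 SE (adjusted p = 1.00), and with the replicate block it passed (95% interval 2.29 to 3.34, adjusted p = 1.04e-03), where 0.0496% of all tested probe sets rose. The shared Cd36 probe set had 1.19 (adjusted p = 0.0965 with the block), Cd36 itself 1.91 (0.402), Acsl1 0.78 on the brighter probe set (0.377) and Lpl 0.66 (0.788). Among the members a different compound response under the 2 viruses was thus called for Fabp4 alone, and only with pairing.

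Across the 11 member probe sets the median log2 change was 0.20 for the virus in vehicle, 0.15 for the compound under the null virus, 0.74 for the compound under the PPARγ virus, 0.94 for the virus in compound and 0.92 for both agents. Without the Cd36 probe set the last 3 medians were 0.59, 0.57 and 0.69. The corresponding medians over all tested probe sets lay between -0.03 and 0.00. In compound, the virus raised 5 of 11 member probe sets, where 0.635% of all tested probe sets rose and 0.0695% fell, and on 6 of 11 all arrays were higher, as on 4.56% of all. Without the Cd36 probe set 4 of 10 rose. That probe set's place among the 6 is no support. These comparisons share control arrays and do not support each other independently. In vehicle, where limma called 0 of the 11, 4 had an unadjusted p under 0.05, as had 4.43% of all, and 0.0397% of all tested probe sets rose. These 4 differed in direction: the shared Cd36 probe set (1.08) and Fabp4 (1.28) were higher with the virus, Acsl3 (-0.52) and Acsl5 (-0.37) lower.

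Of 74 other genes of the same pathway, 61 were on the array and 34 passed the filter for testing. The single gene of these that passed was Angptl4, an inhibitor of lipoprotein lipase and a known PPAR target. It rose with compound under the PPARγ virus from 150 ± 83.5 (SD, n = 4) to 654 ± 200 (SD, n = 4), or 4.51-fold (2.17 ± 0.33 SE, adjusted p = 0.0220). It rose 5.51-fold with the virus in compound (adjusted p = 0.00324) and 9.22-fold with both agents (adjusted p = 2.20e-04). Among 10 tested receptors and transporters, which include the fatty acid transport protein genes Slc27a1, Slc27a2 and Slc27a4, 0 passed in any comparison. The same held for 8 of the 9 tested lipases and lipase partners, among them Gpihbp1, which anchors lipoprotein lipase on capillaries (-0.06 with compound under the PPARγ virus), and the triglyceride lipase gene Pnpla2 (0.45). Of the 5 other tested synthetases and 9 acyl-CoA binding proteins and thioesterases, 0 passed. Dbi, the acyl-CoA binding protein, had 0.32 in that comparison.

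**Figure D4:**
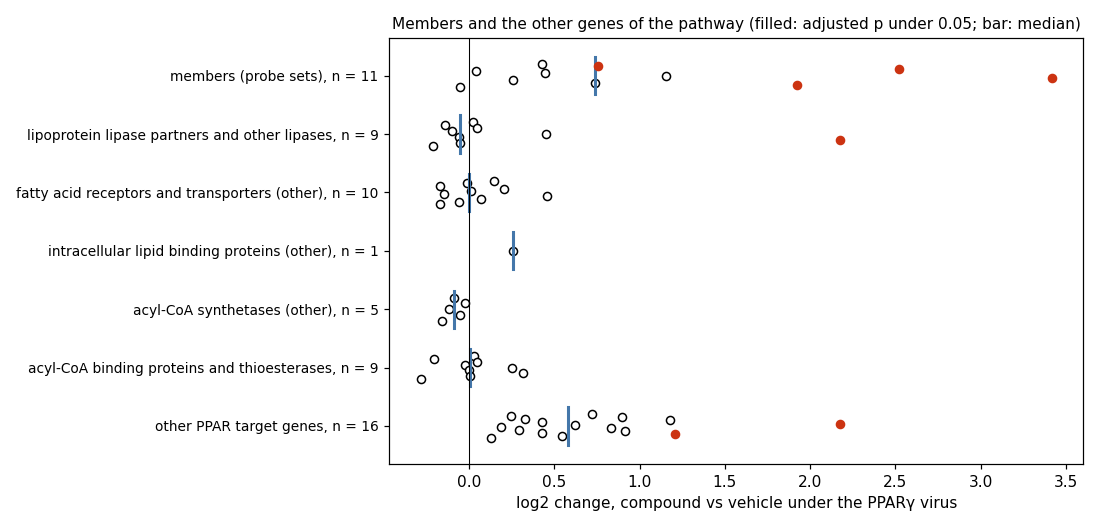
Log2 change with compound under the PPARγ virus for the 11 member probe sets, the other tested genes of 5 pathway lists and 16 further PPAR target genes other than Pparg, with filled points for an adjusted p under 0.05 and a blue bar for each median. The members' median is 0.74, or 0.59 without the Cd36 probe set, and Angptl4, which is on 2 of the lists, stands at 2.17.

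The 5 genes most like Fabp4 over the 14 arrays, by Pearson correlation of log2 values, were G0s2 (0.96), Mgst1 (0.94), Angptl4 (0.94), Decr1 (0.92) and Dgat2 (0.92). G0s2 encodes an inhibitor of adipose triglyceride lipase and Dgat2 a triglyceride synthesis enzyme. These correlations describe 14 arrays that share the same 4 groups.

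Markers of other cells that carry Cd36 or Fabp4 were followed beside the members. Endothelial markers, 11 of 14 on the array, summed to 596.0 to 869.8 with null virus and vehicle, 568.2 to 877.9 with null virus and compound, 621.6 to 934.1 with PPARγ virus and vehicle and 732.1 to 982.7 with both. Of the 11, 3 (Kdr, Emcn and Esam) were above the test floor on all 14 arrays, 5 on some (Plvap, Eng, Flt1, Tie1 and Icam2) and 3 on none (Pecam1, Vwf and Cldn5). Plvap had group means of 63.6, 81.8, 126 and 178 in the same order, differences that did not pass. The 3 markers above the floor on all arrays did not share that order. Kdr had 150, 154, 145 and 160, Emcn 200, 196, 163 and 158, and Esam 111, 88.2, 108 and 116. Macrophage and leukocyte markers, 11 of 15 on the array, summed to 648.0 to 919.9, 554.6 to 859.4, 623.4 to 1081.5 and 625.4 to 896.5 in that order, with Cd68, Csf1r, Lyz2 and Aif1 above the floor on all 14 arrays, 4 others (Cd14, C1qc, Cd74 and C1qa) on some, and Ptprc, Itgam and C1qb on none. The part of RNA from either cell type in the member results was not tested.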

How the data were processed

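RNA of rat islets was measured on 16 arrays, 4 per group by their titles. The authors deposited 1 intensity per probe set on a linear scale, without detection calls; how probes were summarised, and on which build, is not given in the sources used here. In the deposited values the mean after trimming was 150.0 on all arrays, so they were used without further scaling. Arrays give no molecule counts, and their number limits the precision.

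Values were taken as log2(intensity + 4.6), 4.6 being the 10th percentile. Of 15923 probe sets, 57 were controls, and 10078 above 39.3, the 40th percentile, on at least 4 arrays were tested. Group means were fitted to 14 arrays with limma 3.58.1 in R 4.3.3 (trended eBayes), at an adjusted p of 0.05. Python 3.11.15 and matplotlib 3.10.9 drew the figures. The fit was tested on simulated data. Symbols came from the platform annotation, updated by gene identifier. Of the tested probe sets 8488 named 1 gene, 235 several and 1355 none.

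Same-numbered vehicle and compound arrays deviated together within a virus (r = 0.445 to 0.702 in 7 of 7 pairs). Across viruses the same numbers gave 0.299 to 0.433 for replicate 1 and -0.139 to 0.128 for replicates 3 and 4, so a replicate block within each virus was an alternative. All member probe sets are named with intensities or group means, though not every change in every comparison is given. Passing list genes are named up to 3 per list, with the 5 genes most like Fabp4. Other names in lists were chosen after their values were seen. Members and lists were chosen with earlier results of these data known.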

Additional observations from a re-analysis of the deposited data

Results flagged for a closer look

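The compound effect on Fabp4 differed between the viruses in the fit with the replicate block, by 2.81 on the log2 scale (adjusted p = 1.04e-03 with limma, 3 pairs under the null virus and 4 under the PPARγ virus, higher in 7 of 7). Without the block the same difference did not pass (adjusted p = 1.00). In 22 sets of 4 arrays, the 11 member probe sets in each PPARγ group, 0 had a single array far from the others by Dixon's criterion at 95%.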

How the results depend on the processing

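Member counts were recomputed under other scalings, pseudocounts, filters, variance models, uses of the identical arrays, blocks and sample sets. The count of 4 for the compound under the PPARγ virus became 2 with only the groups compared and 1 without PPARγ virus replicates 2 and 4, a setting added after the data were seen. The count of 0 for the virus in vehicle became 1 with a replicate block over all groups, the shared Cd36 probe set (1.02, adjusted p = 0.0236). The interaction count of 0 became 1, Fabp4, with the replicate block within each virus and also over all groups. Leaving out 1 array at a time gave 0 to 1 for the virus in vehicle, 0 to 0 for the compound under the null virus, 2 to 4 for the compound under the PPARγ virus, 3 to 5 for the virus in compound, 4 to 6 for both agents and 0 to 0 for the interaction. Calls over all tested probe sets ranged from 1 to 34, 0 to 0, 2 to 40, 31 to 211, 40 to 177 and 0 to 5 in that order, against 4, 0, 6, 71, 67 and 0. The block within each virus added Lpl under the PPARγ virus and changed no other member's call in the compound comparisons. Of 15 member calls, 8 held under every setting that tested them, and 0 of 1864 refitted values changed sign while called. The Cd36 probe set is in all these counts, though its calls are no support, and its call for both agents against neither is among the 8. Without it the main counts were 3 of 10 for the compound under the PPARγ virus, 4 of 10 for the virus in compound and 5 of 10 for both agents. Among values called in neither fit there were 67 sign changes, in 23 values of at most 0.454 in size on the log2 scale. With 51 values not called, 4 passed under some setting: Lpl in 2 comparisons, the shared Cd36 probe set and Fabp4. The stricter filter at the median of the table left Cd36 untested. Intensities below 39.3, which include the null virus arrays of Cd36 and most of those of Fabp4, limit how well the fold changes of these genes are known.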

Other observations

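A wider list of 25 known PPAR target genes, 17 of them tested, was followed beside the members. With the virus in vehicle 2 rose, Pparg and Gpd1, the glycerol-3-phosphate dehydrogenase gene, which went from 73.2 ± 11.4 (SD, n = 3) to 312 ± 108 (SD, n = 4). Without Pparg this was 1 of 16, where 0.0397% of all tested probe sets rose. With compound under the PPARγ virus 2 rose, Angptl4 and G0s2, or 6 with the replicate block. Of all tested probe sets 0.0595% rose there, or 0.357% with the block. G0s2 went from 432 ± 77.0 (SD, n = 4) to 1014 ± 240 (SD, n = 4), a 2.31-fold rise (adjusted p = 0.00817 with limma). With the virus in compound 11 rose and with both agents 9, or 10 and 8 of 16 without Pparg, the gene the virus delivers. Over all tested probe sets 0.635% and 0.605% rose in these comparisons. Among these were Dgat2, a triglyceride synthesis gene (3.01-fold with the virus in compound, adjusted p = 1.2e-04), and Gpd1 (7.04-fold). Without Pparg the list's median log2 change was 0.30 for the virus in vehicle and 0.58 for the compound under the PPARγ virus, where the members had 0.20 and 0.74. Whether these medians differ was not tested.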
